A study of Mus musculus with 8 samples.

Results

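The genes described here are 40 ligands, receptors, antagonists, Smads and Id targets of BMP, activin and TGF-beta signalling. They were taken by symbol from a list of TGF-beta superfamily genes, with 1 probe set per gene, and all 40 were found among the 19938 genes measured. Each of the 40 had a single probe set. Gene expression was measured on 8 microarrays, each carrying RNA from the whole uterus of a female mouse. The 4 controls were Pgr+/+ Foxa2+/+, with intact Foxa2, intact progesterone receptor alleles and no Cre. The 4 deleted mice were PgrCre/+ Foxa2flox/flox: both Foxa2 alleles were floxed and Cre was expressed from 1 progesterone receptor allele, in the cells that use Pgr. The labels state no age. All females were pseudopregnant after mating with vasectomised males, and their uteri were taken on day 3.5, counting the plug as day 0.5. Cre and the Pgr genotype differ together with Foxa2, so their parts in any difference cannot be told apart. In whole tissue, fewer cells of a type and less RNA per cell cannot be told apart either.

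Ligands of this superfamily are secreted dimers that join type II and type I receptor kinases at the cell surface. BMP receptors then phosphorylate Smad1 and Smad5, activin and TGF-beta receptors phosphorylate Smad2 and Smad3, and both sets act in the nucleus with Smad4, while Smad6 and Smad7 inhibit the pathway and the Id genes are classical BMP targets. Activins are dimers of the beta subunits encoded by Inhba and Inhbb, inhibins pair a beta subunit with the alpha subunit encoded by Inha, and follistatin binds activin and keeps it from its receptors. In the uterus this family is known for its part in receptivity, implantation and the decidual reaction of the stroma.

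The probe set for Foxa2, the forkhead gene of the endometrial glands, fell from between 8.61 and 8.82 in controls to between 8.20 and 8.22 in deleted uteri (log2 intensity), as the labels have it. No source used here places this probe set inside or outside the floxed stretch. Over all genes tested, 2209 (11.1%) passed an adjusted p of 0.05 (limma, Benjamini-Hochberg), with 898 higher and 1311 lower in deleted uteri. Repeated quantile normalisation, centring on the array median and cyclic loess turned the share of higher genes from 40.7% to 51.8%, 52.4% and 50.3%. Of 12 epithelial markers 5 were higher and none lower, and of 16 endothelial markers 10 were lower and none higher. Of 10 gland markers 5 were lower, Foxa2 among them. Of 9 NK and T cell markers 7 were lower, and the 2 that did not pass were the T cell genes Cd3e (difference 0.17) and Cd3g (-0.08). In the stroma 1 of 12 markers was lower, and in smooth muscle 1 of 10 was higher. Macrophage and leukocyte markers had 1 of 10 lower.

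Of the 40 genes, 2 rose, the activin beta subunit genes Inhbb and Inhba, and 2 fell, the activin antagonist gene Fst and the BMP Smad gene Smad1. That is 10.0%, against 11.1% of all genes, so the share of changed genes was close to the background. In the 2 directions, 4.5% of all genes were higher and 6.58% lower. A call with a change of at least 1.5-fold was found in 3 of the 40, Inhbb, Inhba and Fst, and in 3.28% of all genes (1.76% higher and 1.51% lower). The median difference was 0.02 on the log2 scale over the 40 genes and 0.01 over all genes, and the median size of the difference, sign disregarded, was 0.12 and 0.105. The number of changed genes rested on single arrays: leaving out control replicate 1, 2, 3 or 4, or Foxa2-deleted replicate 1, left Inhbb as the only call (2.5% of the 40), where 2.79% to 5.57% of all genes were called. Leaving out Foxa2-deleted replicate 4 gave 8 calls (20%), adding Bmp8a, Gdf10, Smad3 and Id3, where 15.3% of all genes were called. In these omissions the count for the 40 genes moved in the same direction as that for all genes. Without Foxa2-deleted replicate 2 it did not: 3 of the 40 (7.5%) were called, where the share of all genes rose to 14.8%.

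**Figure D1:**
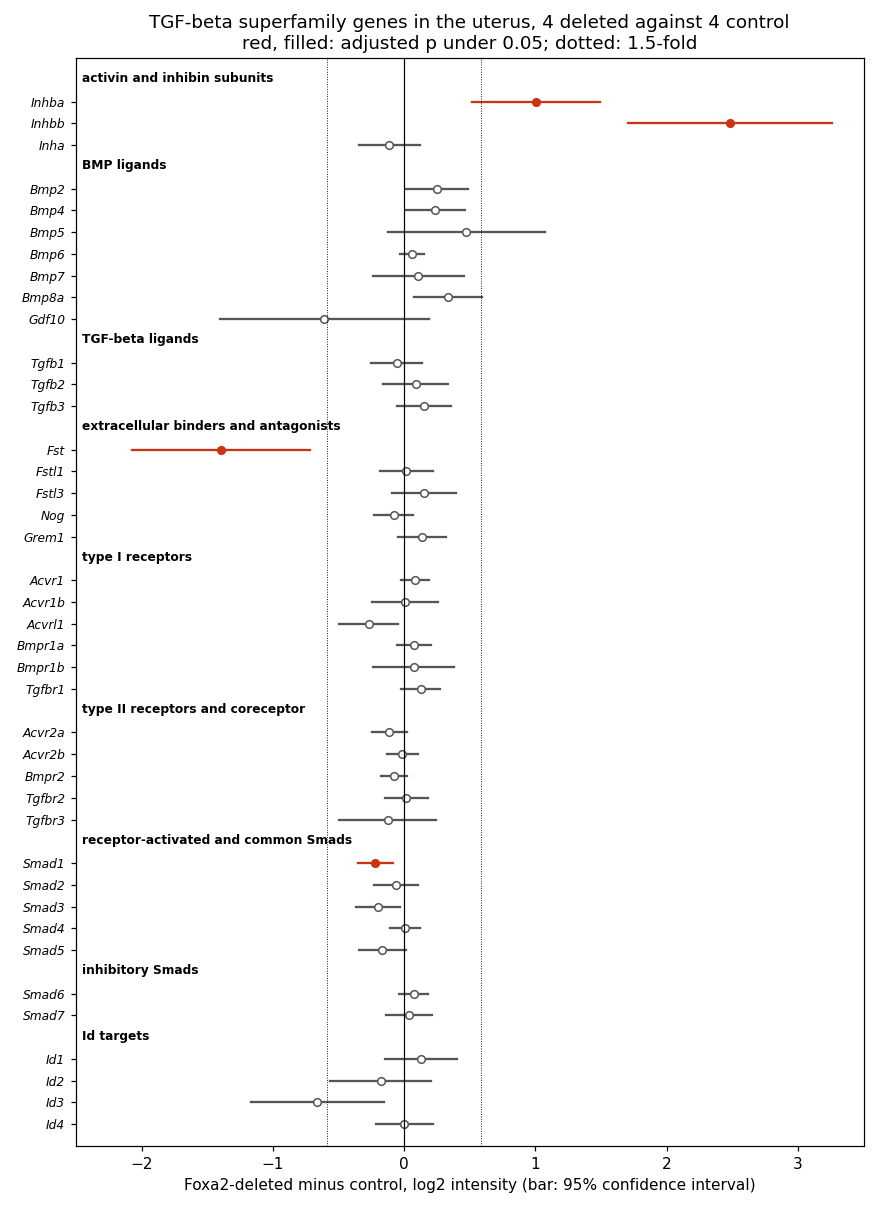
Difference between Foxa2-deleted and control uteri (log2 intensity, x axis) for the 40 genes, grouped by role on the y axis; bars are 95% confidence intervals of the limma fit over 4 and 4 uteri, filled red points passed an adjusted p of 0.05, and dotted lines mark 1.5-fold. Inhbb lies at 2.49 and Inhba at 1.0, Fst lies at -1.40 and Smad1 at -0.22, and the receptors lie between -0.27 and 0.13.

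Upstream sequence of the activin subunit genes that rose is shown because they moved the same way and differ in base composition. These are the 250 bases before the annotated start of each gene, from RefSeq on GRCm38.p6, printed 5′ to 3′ along the gene. Capitals mark each GTCT, the short box to which Smad proteins bind, or AGAC, the same box on the other strand. The Inhba stretch is chr13:16011601-16011850 on the + strand, and the Inhbb stretch is chr1:119422249-119422498 on the - strand.
Inhba: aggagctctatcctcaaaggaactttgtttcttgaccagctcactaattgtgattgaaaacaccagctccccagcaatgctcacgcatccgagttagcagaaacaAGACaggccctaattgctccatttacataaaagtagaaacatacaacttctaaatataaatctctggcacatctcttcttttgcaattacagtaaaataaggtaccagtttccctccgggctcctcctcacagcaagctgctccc
Inhbb: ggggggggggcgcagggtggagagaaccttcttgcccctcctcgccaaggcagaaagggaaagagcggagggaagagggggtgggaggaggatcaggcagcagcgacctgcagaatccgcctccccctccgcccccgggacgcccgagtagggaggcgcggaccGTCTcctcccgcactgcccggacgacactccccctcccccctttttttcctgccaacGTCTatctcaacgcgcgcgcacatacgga

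The Inhba stretch holds 43.2% G and C and the Inhbb stretch 68.0%, where the median over all 32851 promoters of the table is 52.4%. The Smad box occurs 1 time in the first and 2 times in the second. It is common, being held by 82.9% of all promoters of this length. Neither stretch holds, on either strand, the palindromic Smad element GTCTAGAC (in 0.167% of all promoters), the GC-rich BMP element GGCGCC (9.59%), the extended box CAGACA (17.1%) or the forkhead motifs TGTTTAC (3.17%) and TATTTAC (2.73%). The same is true of the palindromic estrogen and progesterone response elements, which 0.0639% and 0.387% of all promoters hold. GTCT is part of GTCTAGAC, and AGAC is part of CAGACA. No match says only that these letters are not in this window. The stretch before Smad1 held none of these motifs, the short box included. Of the 40 genes 29 matched the table by symbol, and Fst did not. Among those 29, the short box lies before 25, GGCGCC lies before 7, namely Bmpr1a, Bmpr2, Grem1, Id2, Id4, Smad5 and Tgfbr1, and CAGACA before 5, namely Bmp5, Bmpr1b, Fstl3, Tgfb2 and Tgfbr1.

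Inhbb, the beta B subunit of activin B and inhibin B, had the largest difference of the 40 genes. Its log2 intensity was 8.34, 8.24, 8.18 and 8.24 on control replicates 1 to 4, and 11.28, 10.04, 11.60 and 10.02 on Foxa2-deleted replicates 1 to 4. The controls lay within a narrow band and every deleted uterus lay far above it, with replicates 1 and 3 above replicates 2 and 4. The mean went from 8.25 ± 0.07 to 10.74 ± 0.82 (SD, n = 4 each), 5.60-fold higher (log2 change 2.49, SE 0.34, adjusted p = 0.00584, limma). This call held under each of the 20 alternative settings, 8 of which leave out 1 array, with adjusted p between 0.00127 and 0.0274 and a change between 2.20 and 2.72 without any 1 array.

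Inhba, the beta A subunit of activin A and inhibin A, rose as well. The controls read 7.99, 7.90, 7.68 and 8.0, and the deleted uteri 8.96, 8.29, 9.49 and 8.84. The groups did not overlap, and among the deleted uteri replicate 3 was highest and replicate 2 lowest. The mean went from 7.89 ± 0.15 to 8.90 ± 0.49 (SD, n = 4 each), 2.0-fold higher (log2 change 1.0, SE 0.21, adjusted p = 0.024, limma). Leaving out control replicate 1, 2, 3 or 4, or Foxa2-deleted replicate 1, ended this call, at adjusted p from 0.0541 to 0.0766. Inha, the alpha subunit found only in inhibins, did not pass: it went from 8.69 ± 0.12 to 8.58 ± 0.20 (SD, n = 4 each), with a difference of -0.11 and a 95% confidence interval from -0.35 to 0.12.

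Fst, which encodes follistatin, was the only 1 of 5 extracellular binders and antagonists to pass. Controls read 10.74, 10.53, 10.28 and 10.76, and deleted uteri 8.73, 10.08, 9.34 and 8.58. Every deleted uterus lay below every control, and Foxa2-deleted replicate 2 was the nearest to them. On average Fst fell from 10.58 ± 0.22 to 9.18 ± 0.68 (SD, n = 4 each), 2.63-fold lower (log2 change -1.40, SE 0.30, adjusted p = 0.0238, limma). The same 5 omissions ended this call too, at adjusted p from 0.0558 to 0.0761, and without Foxa2-deleted replicate 2 the fall was -1.69 (adjusted p = 0.00145).

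The other antagonists kept within narrow intervals. The difference was 0.15 (95% interval from -0.10 to 0.40) for Fstl3, a relative of follistatin that also binds activin. For the BMP antagonists Nog and Grem1 it was -0.08 (from -0.23 to 0.07) and 0.14 (from -0.05 to 0.32). For the follistatin-like glycoprotein gene Fstl1 it was 0.02 (from -0.18 to 0.22). Each of these intervals stays inside 1.5-fold in either direction.

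**Figure D2:**
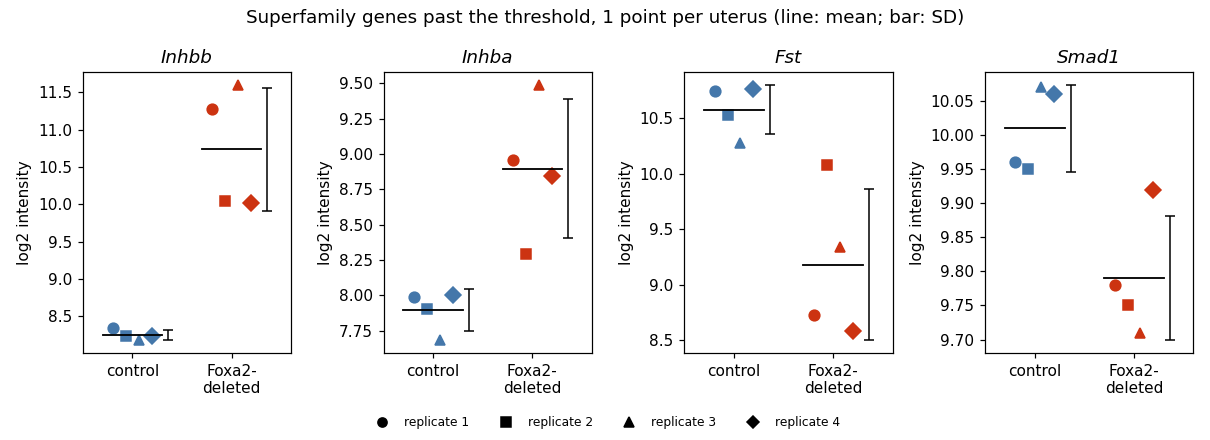
Log2 intensity (y axis, its own range in each panel) of Inhbb, Inhba, Fst and Smad1 in each control and each Foxa2-deleted uterus; 1 point per uterus with its shape for the replicate number, lines for the means and bars for the SD over 4 uteri. In each gene the 4 deleted uteri lie on one side of the 4 controls, and their spread is wider than that of the controls, least so for Smad1 (SD 0.09 against 0.06). The 4 genes are shown because they passed on these same values, which favours such a separation.

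None of the 7 BMP ligands passed. Of their 7 estimates 6 lay above 0, as did those of 24 of the 40 genes and of 10333 of all 19938 genes. Bmp2, the ligand known for its role in the decidual reaction, read 8.14, 7.98, 8.10 and 8.06 in controls and 8.16, 8.48, 8.10 and 8.55 in deleted uteri. Foxa2-deleted replicates 2 and 4 lay clearly above the controls, replicate 1 just above them and replicate 3 among them (difference 0.25, SE 0.10, adjusted p = 0.136, limma). Bmp4 had a difference of 0.24 (SE 0.10, adjusted p = 0.143) and Bmp8a one of 0.34 (SE 0.11, adjusted p = 0.0883). In Bmp8a the deleted uteri read 8.32, 8.35, 8.70 and 8.10, and replicate 4 alone lay within the controls at 7.95 to 8.16. Without that array the difference was 0.42 (adjusted p = 0.033). Bmp6 differed by 0.06, with a 95% interval from -0.03 to 0.15, and Bmp7, a ligand of epithelia, by 0.11 (from -0.24 to 0.46).

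Bmp5 and Gdf10 had the widest spread of these ligands among the deleted uteri. Bmp5 read 7.40, 7.37 and 7.58 on Foxa2-deleted replicates 1 to 3 and 8.65 on replicate 4, against 7.04 to 7.42 in controls (difference 0.48, adjusted p = 0.244). Without replicate 4 the difference of Bmp5 was 0.175 (adjusted p = 0.248). Gdf10, also named BMP3B, read 10.12, 9.69, 8.91 and 10.93 on Foxa2-deleted replicates 1 to 4 and 10.38 to 10.64 in controls. Replicates 1 to 3 lay below all controls and replicate 4 above them (difference -0.61, SE 0.35, adjusted p = 0.264). Without replicate 4 the difference of Gdf10 was -0.95 (adjusted p = 0.041), and without replicate 3 it was -0.27 (adjusted p = 0.493). The TGF-beta ligand genes Tgfb1, Tgfb2 and Tgfb3 did not pass, with differences of -0.06, 0.09 and 0.15 and all 3 intervals inside 1.5-fold.

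None of the 11 receptor genes passed, and all 11 intervals lay inside 1.5-fold. Such an interval was found in 33 of the 40 genes (82.5%), 4 of the 7 BMP ligands (57.1%) and 87.9% of all genes. Among type I receptors, the signalling kinases Acvr1, Bmpr1a and Tgfbr1 differed by 0.09 (95% interval from -0.02 to 0.19), 0.08 (from -0.06 to 0.21) and 0.13 (from -0.02 to 0.28). The activin receptor gene Acvr1b differed by 0.01 (from -0.25 to 0.26). Bmpr1b, a further BMP receptor, differed by 0.07 and was the only 1 of the 40 genes in the dimmest 25% of genes, where a change is understated.

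Acvrl1, the type I receptor ALK1 of endothelial cells, was the receptor with the largest difference. It read 10.15, 10.03, 10.04 and 10.17 in controls and 9.99, 10.01, 9.73 and 9.58 in deleted uteri. The groups did not overlap, although replicates 1 and 2 of the deleted uteri lay just under the lowest control (difference -0.27, SE 0.10, adjusted p = 0.102, limma). The mean of the 16 endothelial markers lay between 10.43 and 10.51 in controls and between 9.63 and 10.20 in deleted uteri, and 10 of the 16 were lower, among them Pecam1 (log2 change -0.66, SE 0.10), Tie1 (-0.70, SE 0.11) and Egfl7 (-0.62, SE 0.11), with adjusted p from 0.00774 to 0.0125. Their part in the value of Acvrl1 was not tested.

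Of the type II receptors and the coreceptor, Bmpr2, the BMP type II receptor, read 11.18, 11.14, 11.17 and 11.16 in deleted uteri and 11.17 to 11.30 in controls (difference -0.08, 95% interval from -0.17 to 0.02). The activin receptor genes Acvr2a and Acvr2b differed by -0.11 (from -0.25 to 0.02) and -0.01 (from -0.13 to 0.10). The TGF-beta receptor gene Tgfbr2 differed by 0.02 (from -0.15 to 0.18). Tgfbr3, the coreceptor betaglycan, which also helps inhibin to bind, read 11.46 and 11.26 on Foxa2-deleted replicates 1 and 2 and 10.77 and 10.70 on replicates 3 and 4, where controls read 11.02 to 11.26. Replicate 1 lay above the controls, replicate 2 at their highest value and the other deleted uteri below them (difference -0.13, SE 0.16, adjusted p = 0.622).

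Of the Smads, only Smad1 passed, and its change was small. Controls read 9.96, 9.95, 10.07 and 10.06 and deleted uteri 9.78, 9.75, 9.71 and 9.92. The groups did not overlap. It fell from 10.01 ± 0.06 to 9.79 ± 0.09 (SD, n = 4 each), 1.16-fold lower (log2 change -0.22, SE 0.06, adjusted p = 0.0461, limma). All 3 other scalings and the test over all probe sets ended this call (adjusted p from 0.0616 to 0.0856), and so did leaving out each array but Foxa2-deleted replicate 4 (from 0.0716 to 0.128).

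Smad5, the other BMP Smad here, differed by -0.17 (SE 0.08, adjusted p = 0.187), and Smad3, an activin and TGF-beta Smad, by -0.20 (SE 0.07, adjusted p = 0.110). In Smad3 the deleted uteri read 10.04, 10.13, 10.02 and 10.35, and replicate 4 alone reached the control range of 10.28 to 10.37. Without replicate 4 the difference of Smad3 was -0.27 (adjusted p = 0.0175). Smad2 and Smad4, the Smad shared by all branches, differed by -0.06 (95% interval from -0.23 to 0.11) and 0.01 (from -0.10 to 0.12). The inhibitory Smad6 and Smad7 differed by 0.07 (from -0.04 to 0.18) and 0.04 (from -0.14 to 0.22).

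None of the 4 Id genes, which encode inhibitors of helix-loop-helix transcription factors, passed. Id3 read 9.65, 9.58, 9.55 and 9.85 in controls and 8.67, 9.24, 8.47 and 9.60 in deleted uteri. Replicates 1 to 3 lay below all controls and replicate 4 among them (difference -0.66, SE 0.22, adjusted p = 0.0854, limma), and without replicate 4 the difference was -0.86 (adjusted p = 0.0217). Id2 read 11.58, 11.52, 11.13 and 12.09 in deleted uteri, with replicates 1 to 3 below the controls at 11.65 to 11.81 and replicate 4 above them (difference -0.18, adjusted p = 0.492). Id1 read 9.76, 9.88, 9.71 and 10.19 in deleted uteri and 9.62 to 10.01 in controls (difference 0.13, adjusted p = 0.477), and Id4 differed by 0.00 (95% interval from -0.21 to 0.22).

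**Figure D3:**
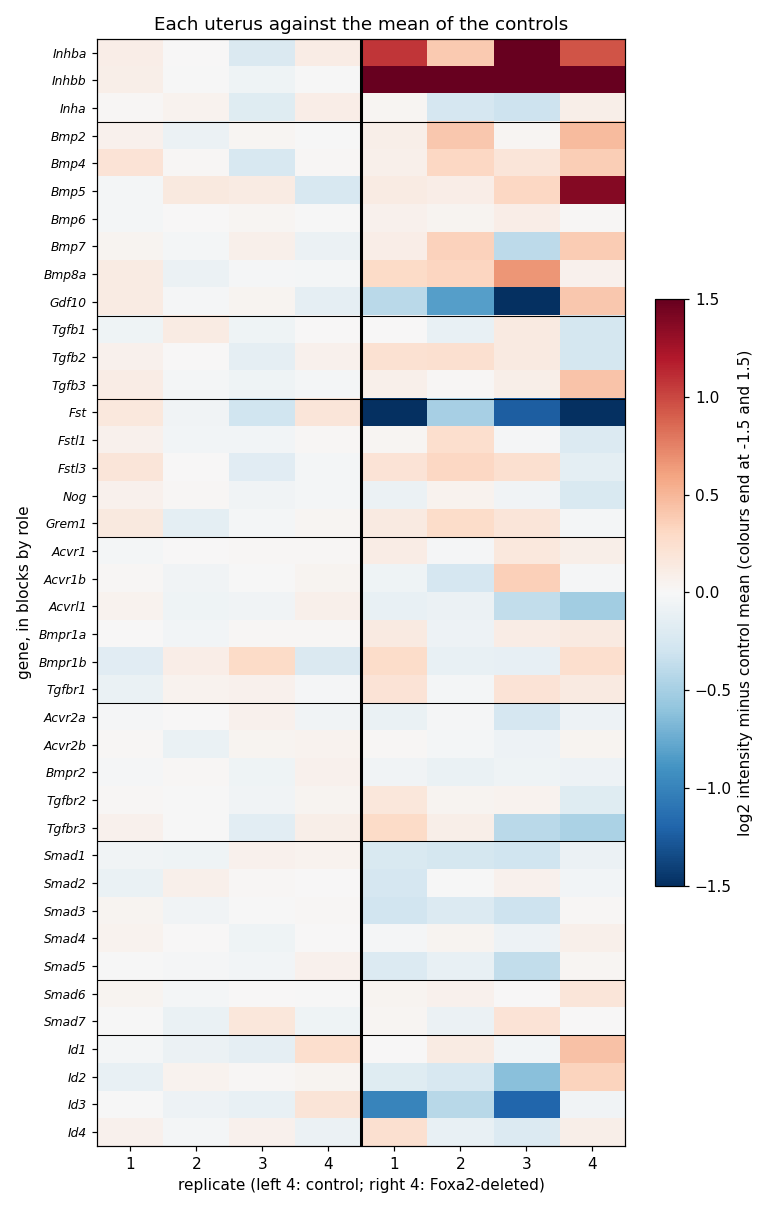
Log2 intensity of each of the 40 genes (y axis, in blocks by role) on each array (x axis, control replicates 1 to 4 and then Foxa2-deleted replicates 1 to 4), as the difference from the mean of the 4 controls; red is higher, blue lower, and colours end at -1.5 and 1.5. The Inhbb row is red and the Fst row blue on all 4 deleted arrays, while Gdf10, Id2 and Bmp7 differ in sign between Foxa2-deleted replicates 3 and 4.

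The 40 genes were more variable among deleted uteri than among controls. The SD was larger in deleted uteri for 36 of them (90.0%), against 70.3% of all genes, with a median SD of 0.19 in deleted uteri and 0.07 in controls (0.10 and 0.07 over all genes). Of the 84 further pathway genes described below, 79.8% had the larger SD in deleted uteri. Foxa2-deleted replicates 3 and 4 were the opposite extremes of the deleted group in 17 of the 40 genes (42.5%), as in Gdf10, Id2, Bmp7 and Smad5, against 25% of all genes. The 84 further pathway genes did not share this, at 16.7%. The pair of replicates 3 and 4 was picked after these values were seen, and no other pair was counted. These shares were not tested. The groups did not overlap in 5 of the 40 genes, the 4 that passed and Acvrl1, against 21.1% of all genes (9.55% higher and 11.6% lower). Without Foxa2-deleted replicate 4 they did not overlap in 14 (35.0%), against 32.6% of all genes at that setting.

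Of the rest of the pathway, 84 further genes were measured, of which 12 rose, 9 fell and 63 did not pass. That is 25%, against 11.1% of all genes, with a median difference of 0.05 (0.01 over all genes). The list was chosen with earlier results of these data known, and the difference between these shares was not tested. The count ranged from 5 (5.95%, against 2.79% of all genes) without control replicate 2 to 25 (29.8%, against 14.8%) without Foxa2-deleted replicate 2, and 5 of the 21 calls, those of Bmp3, Crim1, Ltbp1, Pmepa1 and Tll1, held without each array. Of the 21, the deleted uterus nearest the controls was replicate 2 in 15. The same count over all genes was not made, so whether this is particular to these genes is not known.

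Pmepa1, a target of TGF-beta and activin signals whose product restrains them, had the largest rise of these genes. It read 10.08, 9.60, 9.73 and 9.76 in controls and 11.32, 10.85, 11.79 and 10.83 in deleted uteri, all of them clear of the controls, with replicates 3 and 1 highest, as for Inhbb. Its mean rose 2.65-fold (log2 change 1.41, SE 0.21, adjusted p = 0.00778, limma). Of the other intracellular regulators Zfyve16, an endosomal scaffold protein that binds Smads, fell by 0.54 (SE 0.10, adjusted p = 0.0152), and 15 of 17 did not pass. Zfyve16 missed the threshold without control replicate 2 or 3 (at most 0.0539).

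Genes for the storage and processing of ligands moved in both directions: 3 of 15 rose and 2 fell. Ltbp1, which ties latent TGF-beta to the matrix, rose by 0.81 (SE 0.14, adjusted p = 0.0128), from 9.92 to 10.20 in controls to 10.40 to 11.11 in deleted uteri. Tll1, a tolloid-like protease that cleaves the BMP antagonist chordin, fell by 1.0 (SE 0.12, adjusted p = 0.00336), from 8.48 to 8.72 down to 7.32 to 7.94. Itgb8, an integrin subunit that activates latent TGF-beta, fell by 0.54 (SE 0.10, adjusted p = 0.018). Pcsk6, a proprotein convertase, and Ltbp2, a matrix protein related to Ltbp1, were higher by 0.87 (SE 0.19, adjusted p = 0.0257) and 0.63 (SE 0.17, adjusted p = 0.0492). Both calls ended when any control or Foxa2-deleted replicate 1 was left out, at adjusted p reaching 0.0809 and 0.127, and that of Ltbp2 also under 2 of 3 other scalings, with robust eBayes and with all probe sets tested. Itgb8 missed the threshold without control replicate 2 or 4 (at most 0.0528).

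Of 18 other ligands 3 rose and 1 fell. Bmp3, a BMP family ligand that opposes BMP signals, rose by 0.54 (SE 0.09, adjusted p = 0.0113), and the growth and differentiation factor genes Gdf5 and Gdf6 rose by 0.43 (SE 0.09, adjusted p = 0.0213) and 0.41 (SE 0.08, adjusted p = 0.0214). Gdf11, an activin-like ligand, was lower (log2 change -0.53, SE 0.14, adjusted p = 0.0414). Gdf11 kept its call with Foxa2-deleted replicate 2 left out and lost it when any other array was (adjusted p reaching 0.111), and lost it under repeated quantile normalisation, under cyclic loess and with all probe sets tested. Gdf5 and Gdf6 missed the threshold without control replicate 2, 3 or 4 (at most 0.0697 and 0.0682).

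Among 15 other extracellular antagonists, 2 rose and 2 fell. Chrdl2, a chordin-like BMP antagonist, rose by 1.11 (SE 0.20, adjusted p = 0.0147): controls read 9.48, 9.23, 9.16 and 9.10 and deleted uteri 10.84, 9.86, 10.60 and 10.12. Its relative Chrdl1 was higher by 0.62 (SE 0.16, adjusted p = 0.0442). Crim1, a membrane protein that binds BMPs, and Bmper, a BMP-binding protein of endothelial cells, fell by 0.37 (SE 0.06, adjusted p = 0.0123) and 0.33 (SE 0.07, adjusted p = 0.0228). Chrdl2 missed the threshold without control replicate 2, 3 or 4 (at most 0.0521), Chrdl1 without these or Foxa2-deleted replicate 1 or 2 (at most 0.115) and with all probe sets tested, and Bmper without Foxa2-deleted replicate 1 or control replicate 2 or 4 (at most 0.0744).

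Of 9 other receptors and coreceptors 1 rose and 2 fell. The repulsive guidance molecule genes, which encode BMP coreceptors, parted: Rgma rose by 0.61 (SE 0.15, adjusted p = 0.0369) and Rgmb fell by 0.38 (SE 0.07, adjusted p = 0.0148). Eng, the endothelial coreceptor endoglin and itself 1 of the 16 endothelial markers, fell by 0.26 (SE 0.07, adjusted p = 0.0437). Eng missed the threshold under all 3 other scalings and with all probe sets tested, and kept its call among the 8 single omissions in that of Foxa2-deleted replicate 2 alone (otherwise at most 0.124). Rgma kept its call without Foxa2-deleted replicate 2 or 4 and lost it without each other array (at most 0.106), and Rgmb lost it without control replicate 2 or 4 (at most 0.0529).

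Target genes of the pathway did not move together: of 10, 2 rose, 1 fell and 7 did not pass. Ccn2, a matrix gene induced by TGF-beta, read 9.93, 11.40, 10.26 and 10.22 in deleted uteri against 11.48 to 11.71 in controls. Only Foxa2-deleted replicate 2 stayed close to the controls (log2 change -1.13, SE 0.27, adjusted p = 0.034). Wnt4, which acts downstream of Bmp2 in the decidua, rose by 0.39 (SE 0.08, adjusted p = 0.0228) and the homeobox gene Dlx5 by 0.55 (SE 0.14, adjusted p = 0.0394). The BMP-responsive homeobox genes Msx1 and Msx2 did not pass, at -0.65 (SE 0.26, adjusted p = 0.125) and 0.60 (SE 0.33, adjusted p = 0.242). In both, Foxa2-deleted replicate 4 was the highest deleted uterus, at 10.0 and 9.65, as it was for Id1, Id2 and Id3. In Id4 replicate 1 was the highest, at 9.84, with replicate 4 at 9.69. Over the whole lists, replicate 4 was the highest deleted uterus in 16 of the 40 genes and 16 of the 84 further genes (19.0%). Among all genes the share was 21.8%, and these shares were not tested. Leaving out any control ended the calls of Ccn2, Dlx5 and Wnt4 (at most 0.0971, 0.113 and 0.0727). So did leaving out Foxa2-deleted replicate 1, 3 or 4 for Ccn2, and replicate 3 or 4, or testing all probe sets, for Dlx5.

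**Figure D4:**
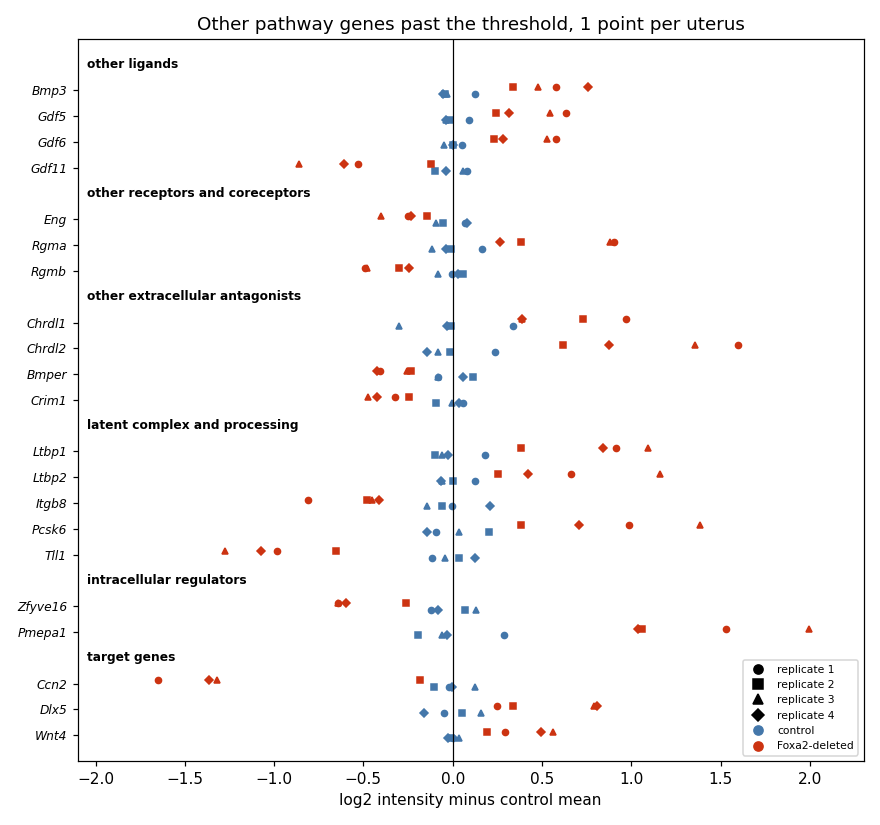
Log2 intensity minus the mean of the controls (x axis) in each uterus for the 21 of 84 other pathway genes that passed an adjusted p of 0.05 (y axis, grouped by list), blue for controls and red for Foxa2-deleted uteri, with the point's shape for the replicate number. In all 21 genes the 4 deleted uteri lie on one side of the 4 controls, as in 21.1% of all genes. The 21 were picked by adjusted p on these same values, which favours such a separation. Foxa2-deleted replicate 2 is the nearest to the controls in 15, a count not made over all genes.

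Hormone-responsive genes and cell type markers moved between the same groups, and their part in the values above was not tested. Of 14 progesterone-responsive genes 7 were lower and none higher, with a list mean between 10.25 and 10.31 in controls and at 9.37, 10.16, 9.28 and 9.32 on Foxa2-deleted replicates 1 to 4. Foxa2-deleted replicate 2, the nearest to the controls in this list, was also the nearest in Fst. So it was in Inhba and in the means of the estrogen-responsive, endothelial, epithelial, stromal, and NK and T cell lists. In the gland list replicate 3 was the nearest, and in the smooth muscle list replicate 4, as in Inhbb and Smad1. The progesterone targets Ihh and Fkbp5 and the zinc finger gene Zbtb16 were lower, by log2 changes of -0.76 (SE 0.16) in Ihh, -0.71 (SE 0.16) in Fkbp5 and -1.46 (SE 0.33) in Zbtb16. Of 14 estrogen-responsive genes 9 were higher and none lower. Among the 9 is Pgr, whose locus carries Cre in every deleted mouse: its probe set read 11.15 to 11.27 in controls and 11.35 to 11.81 in deleted uteri (log2 change 0.37, SE 0.10, adjusted p = 0.0428), a call lost without any single control or Foxa2-deleted replicate 1 or 4 (at most 0.106), under repeated quantile normalisation and with all probe sets tested. This list had a list mean between 9.03 and 9.12 in controls and at 11.06, 10.63, 11.24 and 10.74 on Foxa2-deleted replicates 1 to 4. Replicates 1 and 3 were the highest here, as they were for Inhbb, Inhba and Pmepa1. They were also the highest deleted uteri in the smooth muscle list and the macrophage and leukocyte list, but not in the epithelial list. The mean of the 12 epithelial markers lay between 9.86 and 10.08 in controls and between 10.34 and 11.26 in deleted uteri, and its members differed among themselves. Krt19 (log2 change 1.86, SE 0.22), Elf3 (1.78, SE 0.25), Krt7 (1.53, SE 0.27), Krt8 (0.93, SE 0.17) and Epcam (0.87, SE 0.22) passed. Of the 7 that did not pass, Cdh1, Cldn7, Esrp1, Grhl2 and Krt18 had differences of 0.59, 0.90, 0.57, 0.31 and 0.11, and Cldn3 and Cldn4 of -0.47 and -0.11.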

How the data were processed

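Deposited values are log2 intensities of probe sets that the authors obtained with RMA (background correction, normalisation between arrays and summary of probes), per the submitters' processing notes, which also name limma. No source used here states versions, the build or the probe set annotation. RNA (150 ng per uterus) was labelled for Affymetrix whole-transcript arrays, per the labels' protocols, with 1 uterus per array. No detection call is given, RMA understates changes of dim genes, and precision is set by how few arrays there are. Values of different probe sets are not compared with each other.

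Of 35556 probe sets, 21789 had 1 gene symbol in GEO's platform annotation, 1621 several and 12146 none, and the last 2 kinds were left out. The probe set with the highest mean stood for a gene. All genes were fitted with limma 3.58.1 in R 4.3.3 (lmFit, eBayes; genotype only), adjusted by Benjamini-Hochberg over 19938 genes and called at 0.05. Differences are deleted minus control, and SE and 95% intervals are those of the fit. The script was tested on simulated data. Replicates are separate mice, per the labels.

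The 40 genes and all lists were chosen with earlier results of these data known. Named genes are Foxa2 and Pgr, every called gene of the 40, in each role the largest uncalled difference, and genes known in the uterus. Up to 3 called genes, by adjusted p, are named of each further pathway list and of the endothelial, epithelial and progesterone-responsive lists. Of the remaining lists only Foxa2, Pgr, Cd3e and Cd3g are named. The remaining members of the 40, and Gdf11, Chrdl1, Pcsk6, Ltbp2, Msx1, Msx2 and the epithelial markers other than Krt19, Elf3 and Krt7, were named after their values were seen, as was the short box GTCT. Alternatives covered scaling, dim genes, probe sets, variance model, fold, replicate number and each array left out.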

Additional observations from a re-analysis of the deposited data

Results flagged for a closer look

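In the 40 genes, the 21 other pathway genes that passed, Foxa2 and Pgr, the 4 values of a group were checked for an array whose gap to its nearest neighbour was large for the group's range (Dixon's test at the 95% level). Chance marks about 1 in 20 groups, and 6 of 126 were marked. Among the 40 genes these were Bmp5 on Foxa2-deleted replicate 4, at 8.65 against 7.37 to 7.58 on the other deleted arrays, Tgfb3 on the same array, at 10.03 against 9.62 to 9.69, and Bmpr1a on Foxa2-deleted replicate 2, at 10.77 against 10.96 to 10.99. Among the other pathway genes they were Zfyve16 on Foxa2-deleted replicate 2, at 9.65 against 9.27 to 9.31, and 2 genes on control replicate 1, Bmp3 at 8.0 against 7.82 to 7.84 and Gdf5 at 7.44 against 7.31 to 7.33.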

How the results depend on the processing

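Of the 40 genes 4 were called, and the count ran from 1 to 8 with each array left out in turn and was 1, Inhbb, with the replicate block. The call of Inhbb held in every alternative run. Over all genes the count of 2209 ran from 556 to 3059 without single arrays, fell to 1062 with the replicate block and to 653 with a change of at least 1.5-fold required. The count of 21 other pathway genes ran from 5 to 25 without single arrays, was 9 with that fold required, 16 with all probe sets tested and 14 with the replicate block, under which Gdf11, Eng, Rgma, Ltbp2, Pcsk6, Ccn2 and Dlx5 lost their calls, as did Pgr. The 5 genes without overlap became 5 to 14 (12.5% to 35.0%) without single arrays, where 23.4% to 32.6% of all genes did not overlap. No sign was found that the replicate numbers pair the mice. Deviations of same-numbered arrays correlated between -0.051 and 0.057, and in none of the 4 numbers was a control closest to its own number. Such correlations over all genes cannot exclude a pairing, and the labels give none. With the replicate block Inhba and Fst did not pass (adjusted p = 0.0577 for each), nor did Smad1 (adjusted p = 0.0748). The block changes how the SE is estimated and not the difference itself, which stayed at 1.0025 for Inhba and 2.485 for Inhbb. The cause of the changes in the other alternatives was not tested.

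Of the 36 genes that did not pass, 4 passed in some alternative and 9 changed sign in some. Acvr2b became 0.0155 under repeated quantile normalisation, 0.0175 under median centring and 0.0013 under cyclic loess, and Acvr1b became -0.0431 with array weights. With each array left out in turn the differences ran from -0.1233 to 0.01 for Tgfb1, -0.0625 to 0.0908 for Fstl1, -0.1092 to 0.0942 for Acvr1b, -0.0467 to 0.0075 for Acvr2b, -0.0325 to 0.0842 for Tgfbr2, -0.1 to 0.0033 for Smad2, -0.0158 to 0.0342 for Smad4, -0.0167 to 0.0942 for Smad7 and -0.0767 to 0.0733 for Id4.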
